A study of Homo sapiens with 6 samples.

Results

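The 10 genes described here are the receptor genes of the ErbB family (EGFR, ERBB2, ERBB3 and ERBB4), the ligand genes EGF, AREG, TGFA and HBEGF, and the genes of close partners, the adaptor GRB7 and the inhibitor ERRFI1. They were taken by symbol from 26364 symbols listed with a count in each library, and all 10 were present and passed the filter on low counts. The samples were 3 libraries of ZR-75-30 cells infected with the lentivirus pLVX-CDK12, which carries CDK12, and 3 libraries of the same cells infected with the control lentivirus pLVX. ZR-75-30 is an established line from a human breast adenocarcinoma, of epithelial type per the labels, and is known for amplified ERBB2. The 3 libraries of a group are called biological replicates in the design text, which does not say whether they came from separate infections or from 1, so p-values measure the spread between these libraries. The series title states a search for targets of CDK12, a cyclin K-dependent kinase of elongating RNA polymerase II.

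ErbB receptors are tyrosine kinases of the cell surface that are switched on when ligand binding brings receptors together in pairs. EGF, AREG and TGFA bind EGFR, HBEGF binds EGFR and ERBB4, and the neuregulins bind ERBB4, some of them ERBB3 as well. ERBB2 has no known ligand of its own and works as the partner of the other receptors, while ERBB3 has very little kinase activity and signals through the phosphotyrosines its partner adds. GRB7 is an SH2 adaptor that binds active ERBB2 and lies beside it on chromosome 17, and ERRFI1 binds the kinase domain and holds it inactive. In breast cancer, amplification of ERBB2 gives very high levels of the receptor, which antibodies and kinase inhibitors target.

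Total counts ran from 23628890 to 26543653 in the CDK12 libraries and from 21178163 to 25014857 in the controls. CDK12 was at 2009, 2240 and 2124 CPM (counts relative to the library total, scaled between libraries by TMM) in the CDK12 libraries and at 79.0, 81.8 and 72.8 CPM in the controls, so each library matched its label; the files do not separate viral from endogenous transcripts. All 6 luminal markers were expressed, with a summed level of 4590 to 4768 CPM in CDK12 libraries and 5104 to 5322 CPM in controls. Most of that sum came from the keratins. KRT8, KRT18 and GATA3 passed the edgeR test as lower with CDK12, while EPCAM, KRT19 and CDH1 did not pass. CDH1 went the other way, at 19.3 CPM with CDK12 and 17.2 CPM in controls. Of 14 markers of other cell types, none was at 0 in all libraries. The 3 leukocyte markers summed to 1.07 to 1.46 CPM with CDK12 and 3.37 to 3.60 CPM in controls, and the 3 basal markers to 0.260 to 0.371 CPM with CDK12 and 2.19 to 2.49 CPM in controls. In either list 2 of the 3 markers averaged under 1 CPM, KRT5 and KRT14 in the basal list and CD3E and CD14 in the leukocyte list, and most of the sums in controls came from PTPRC (0.358 CPM with CDK12, 2.96 CPM in controls) and TP63 (0.280 CPM with CDK12, 2.26 CPM in controls). Of the leukocyte markers CD14 went the other way and passed the test, at 0.852 CPM with CDK12 and 0.476 CPM in controls (log2 fold change 0.85, edgeR adjusted p = 0.0339). It had few counts, 16 to 25 in CDK12 libraries and 8 to 12 in controls. CD14 passed the filter on low counts only through the CDK12 libraries, where it is high. The 5 fibroblast markers, nearly all of whose level was COL1A1, summed to 60.1 to 71.0 CPM with CDK12 and 46.0 to 50.8 CPM in controls, whereas COL1A2, too low to be tested, was at 0.0511 CPM with CDK12 and 0.296 CPM in controls, with no overlap. The 3 endothelial markers summed to 1.41 to 2.17 CPM with CDK12 and 2.16 to 2.84 CPM in controls. The part of these shifts in the ErbB results was not tested. The 10 interferon-stimulated genes summed to 60.5 to 66.0 CPM in CDK12 libraries, to 649 CPM in control replicate 1 and to 372 and 350 CPM in the other controls. All 10 were lower with CDK12 at an edgeR adjusted p under 0.05, against 18.9% of all genes tested. Their median log2 fold change was -3.33. IFI44L had 3 to 10 counts in CDK12 libraries and 169 to 380 in controls. It passed the filter on low counts only through the controls, where it is high. In the interferon-stimulated genes control replicate 1 stood apart from the other controls, and without it all 10 ErbB genes kept their call. That fit keeps the interferon difference between the groups, whose part in the ErbB results was not tested.

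With the CDK12 virus the 4 receptor genes fell, the ligand genes EGF and HBEGF rose, and ERRFI1 fell. AREG, TGFA and GRB7 did not pass the test. That is 7 of 10 genes called at a Benjamini-Hochberg adjusted p under 0.05 by edgeR's quasi-likelihood test, 2 higher and 5 lower. Over all 14665 genes tested, 35.1% were called, 16.2% higher and 18.9% lower. The 10 genes were chosen with earlier results of these data known, so the comparison with all genes is description only. The median log2 fold change (CDK12 over control) was -0.18 for the 10 genes and 0.00347 for all genes tested. Libraries of the groups did not overlap for 8 of the 10 genes, 3 higher and 5 lower with CDK12, against 45.6% of all genes tested. Tested against a fold of 1.2, 1 of 10 genes passed (ERBB4, lower), and 6.4% of all genes; EGFR, 1.34-fold lower, and HBEGF, 1.28-fold higher, had estimates past that fold without passing.

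To compare the sequences beside the starts of the called genes, the 250 bases before each start were taken from RefSeq (GRCh38.p14) for EGFR, ERBB4, EGF, HBEGF and ERRFI1. Capitals mark matches, on either strand, to the GC box (GGGCGG), the AP-2 motif (GCCNNNGGC), the ETS motif (CCGGAA), the CCAAT box (CCAAT) and the TATA box (TATAAA). The sequences run 5′ to 3′ on the strand of the gene and are shown so that genes that fell can be set beside genes that rose; 8 of the 10 genes matched the table by symbol.
EGFR (chr7:55018767-55019016, plus strand): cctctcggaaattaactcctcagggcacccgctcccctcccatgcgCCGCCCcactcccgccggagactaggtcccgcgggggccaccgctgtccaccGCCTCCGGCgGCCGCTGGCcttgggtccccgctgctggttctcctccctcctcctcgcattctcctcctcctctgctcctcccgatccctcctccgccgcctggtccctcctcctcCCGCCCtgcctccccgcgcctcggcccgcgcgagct
ERBB4 (chr2:212538803-212539052, minus strand): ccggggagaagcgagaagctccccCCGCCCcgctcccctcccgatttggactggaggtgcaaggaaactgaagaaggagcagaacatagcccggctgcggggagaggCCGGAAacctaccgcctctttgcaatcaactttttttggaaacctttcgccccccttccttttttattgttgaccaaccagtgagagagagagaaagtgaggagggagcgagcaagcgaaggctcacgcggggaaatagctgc
ERRFI1 (chr1:8026310-8026559, minus strand): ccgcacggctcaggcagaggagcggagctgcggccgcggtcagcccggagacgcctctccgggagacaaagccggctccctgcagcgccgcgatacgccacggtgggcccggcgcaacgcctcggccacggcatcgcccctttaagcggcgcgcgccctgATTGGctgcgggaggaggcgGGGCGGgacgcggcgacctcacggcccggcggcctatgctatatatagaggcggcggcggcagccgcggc
EGF (chr4:109912633-109912882, plus strand): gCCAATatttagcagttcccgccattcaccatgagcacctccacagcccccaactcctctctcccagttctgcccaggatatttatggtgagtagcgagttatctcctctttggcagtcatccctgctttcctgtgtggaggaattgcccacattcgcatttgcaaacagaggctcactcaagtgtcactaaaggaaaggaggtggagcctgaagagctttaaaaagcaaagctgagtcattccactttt
HBEGF (chr5:140346604-140346853, minus strand): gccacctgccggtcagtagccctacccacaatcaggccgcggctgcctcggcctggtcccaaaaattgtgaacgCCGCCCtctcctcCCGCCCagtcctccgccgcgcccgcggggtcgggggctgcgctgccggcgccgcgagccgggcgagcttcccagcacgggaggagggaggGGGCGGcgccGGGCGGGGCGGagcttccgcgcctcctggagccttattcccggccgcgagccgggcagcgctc
EGFR, which fell, held 2 GC boxes and 2 AP-2 matches, and ERBB4, which fell furthest, 1 GC box and 1 ETS match. HBEGF, which rose, held 5 GC boxes, a pair of which overlap. EGF, which also rose, held 1 CCAAT box and no other match, and ERRFI1, which fell, 1 GC box and 1 CCAAT box. No match of one motif overlapped a match of another in these windows. Of 35116 windows of the same length in the RefSeq table, 42.6% held a GC box, 19.8% the AP-2 motif, 14.5% the ETS motif, 32% a CCAAT box and 10.7% a TATA box. The base composition also differed, with 73.6% G or C in the EGFR window, 57.2% in ERBB4, 48.8% in EGF, 76.4% in HBEGF and 75.2% in ERRFI1. A match describes the letters and shows no binding. For ERBB2 the table holds 1 start, which lies 12 kb before the start of the principal transcript in GENCODE 29 and 13 bases from that of PGAP3 on the opposite strand, so that window is not shown; no entry was used for ERBB3 or GRB7.

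**Figure D1:**
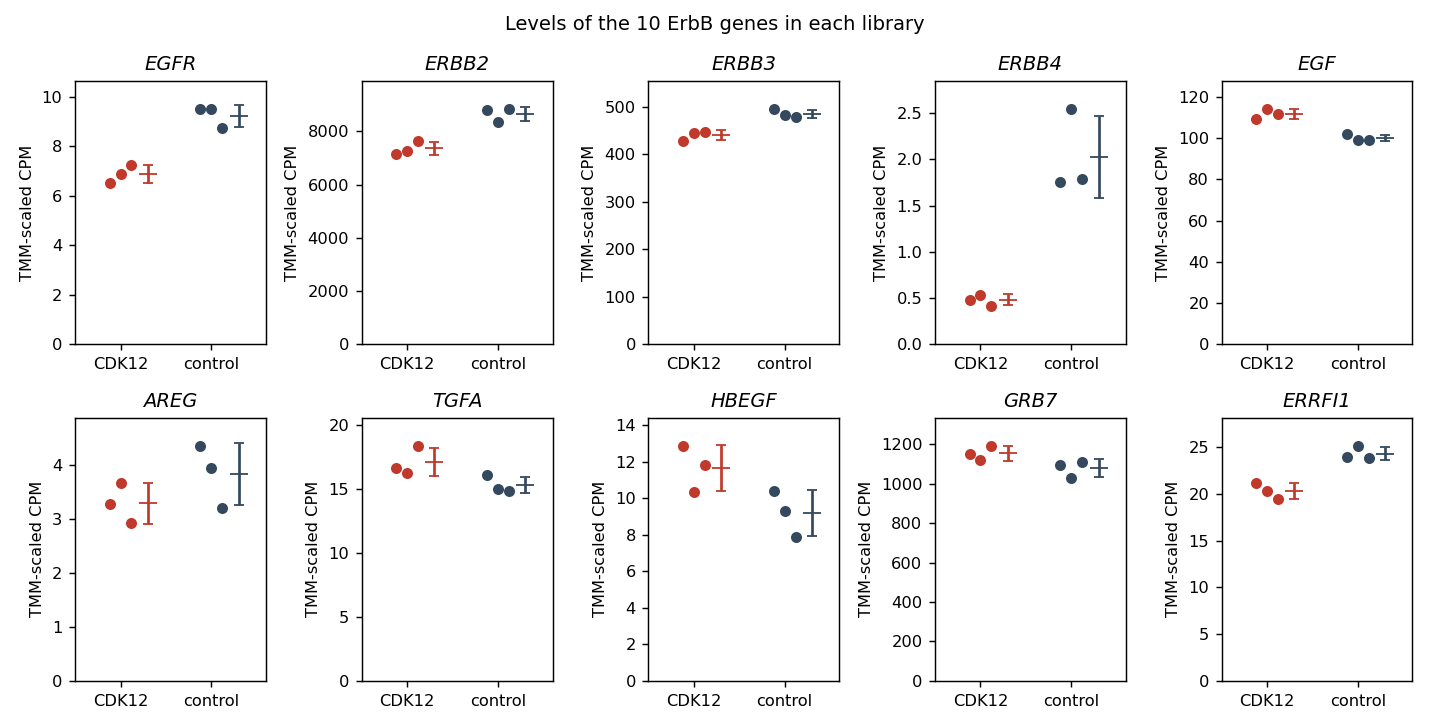
TMM-scaled CPM of the 10 ErbB genes in each library, with CDK12 libraries in red and controls in dark blue; points are libraries 1 to 3 and the bar at the right of each group is the mean ± SD (n = 3 each), with each axis starting at 0. The groups stand clear of each other for the 4 receptor genes, EGF, TGFA, GRB7 and ERRFI1, and overlap for AREG and HBEGF.

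The plot of levels by library shows how far apart the groups lay in proportion to the level of each gene. Per length the order of the genes was led by ERBB2, at 1299 ± 45.4 CPM per kb of exon in CDK12 libraries and 1529 ± 48.6 in controls (SD, n = 3 each). GRB7 came next, at 431 ± 13.8 CPM per kb with CDK12 and 403 ± 16.5 in controls, and then ERBB3, at 59.3 ± 1.4 CPM per kb with CDK12 and 65.3 ± 1.2 in controls. EGF was the most abundant ligand transcript, at 22.8 ± 0.493 CPM per kb with CDK12 and 20.5 ± 0.322 in controls. Below it HBEGF (4.89 ± 0.531 CPM per kb) and ERRFI1 (4.87 ± 0.207) did not differ beyond their spread in CDK12 libraries, where TGFA (3.56 ± 0.233) and AREG (2.65 ± 0.302) came next. In controls ERRFI1 stood at 5.83 ± 0.171 CPM per kb, and HBEGF (3.85 ± 0.525), TGFA (3.19 ± 0.137) and AREG (3.09 ± 0.467) lay within their spread of each other. EGFR, at 0.607 ± 0.0330 CPM per kb with CDK12 and 0.815 ± 0.0391 in controls, and ERBB4, at 0.0394 ± 0.00490 with CDK12 and 0.167 ± 0.0367 in controls, were lowest. Exon lengths were taken from GENCODE 29 on GRCh38, whereas the counts were made on hg19, so these levels are approximate.

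ERBB2, the co-receptor gene on chromosome 17, had 7152, 7274 and 7645 CPM in CDK12 libraries, against 8800, 8338 and 8829 CPM in controls. Every CDK12 library was below every control. The log2 fold change was -0.23 (SE 0.04; edgeR, adjusted p = 8.05e-05), a 1.18-fold lower level. ERBB2 took 0.725% to 0.776% of all counts with CDK12 and 0.821% to 0.870% in controls, and those ranges did not overlap. This share scales by total counts alone, without TMM. In GENCODE 29, ERBB2 shares 194 exon bases with PGAP3 on the opposite strand. The library kit marks strand, but the strand setting of the counting is not given in the sources used here.

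ERBB3, the receptor gene on chromosome 12, had 428, 446 and 447 CPM in CDK12 libraries, against 495, 483 and 478 CPM in controls. The groups did not overlap, but the gap was narrow: the log2 fold change was -0.14 (SE 0.04; edgeR, adjusted p = 0.0067). With total counts as the only scaling ERBB3 did not pass (adjusted p = 0.0518, log2 fold change -0.0973).

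EGFR, the receptor gene on chromosome 7, had 6.50, 6.88 and 7.25 CPM in CDK12 libraries, from 167 to 175 counts each, against 9.49, 9.50 and 8.73 CPM in controls, from 198 to 216 counts. All controls were higher. The log2 fold change was -0.43 (SE 0.10; edgeR, adjusted p = 0.00102). EGFR-AS1, which shares 186 exon bases with EGFR on the opposite strand, had 0 to 2 counts in each library.

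ERBB4, the neuregulin receptor gene on chromosome 2, fell furthest. It had 13, 13 and 10 counts in CDK12 libraries, or 0.483, 0.535 and 0.417 CPM, against 40, 53 and 44 counts in controls, or 1.76, 2.54 and 1.79 CPM. The highest CDK12 library was well under the lowest control, and all 6 values lay above the 0.112 to 0.144 CPM that 3 counts, the limit a count of 0 allows, are worth. The log2 fold change was -2.06 (95% interval -2.57 to -1.54; edgeR, adjusted p = 3.28e-07), a 4.16-fold lower level. Control replicate 2 was the highest library, and without it the log2 fold change was -1.88 (adjusted p = 8.36e-06). Fewer cells with the transcript and less of it per cell cannot be told apart in bulk RNA.

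Among the ligands, EGF (chromosome 4) had 109, 114 and 112 CPM in CDK12 libraries, against 102, 98.9 and 99.3 CPM in controls. The groups were separate, and the log2 fold change was 0.16 (SE 0.04; edgeR, adjusted p = 0.00497). HBEGF (chromosome 5) had 12.9, 10.3 and 11.8 CPM with CDK12, against 10.4, 9.31 and 7.87 CPM in controls. CDK12 replicate 2 and control replicate 1 had nearly the same level, so the groups just overlapped. The log2 fold change of HBEGF was 0.35 (SE 0.10; edgeR, adjusted p = 0.00734), and without control replicate 3, its lowest library, it did not pass (0.25, adjusted p = 0.0748).

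TGFA (chromosome 2) had 16.7, 16.2 and 18.3 CPM in CDK12 libraries, against 16.04, 15.01 and 14.82 CPM in controls. Its groups were separate by a small margin, and the log2 fold change was 0.16 (95% interval 0.0056 to 0.31; edgeR, adjusted p = 0.0992). It passed with upper-quartile factors (adjusted p = 0.0413) and with total counts only (0.0363). AREG (chromosome 4) had 3.27, 3.67 and 2.92 CPM with CDK12, against 4.35, 3.93 and 3.21 CPM in controls, and the groups overlapped. Its log2 fold change was -0.21 (95% interval -0.51 to 0.080; edgeR, adjusted p = 0.258), an interval that holds a fall like that of EGFR as well as no change. It was -0.11 without control replicate 1, -0.14 without CDK12 replicate 3 and -0.33 without control replicate 3, and did not pass in any of these. The hg19 build carries a near-identical copy of AREG, so its counts are uncertain.

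ERRFI1 (chromosome 1), which encodes the feedback inhibitor MIG6, had 21.1, 20.3 and 19.4 CPM in CDK12 libraries, against 24.0, 25.1 and 23.8 CPM in controls. The groups were separate, and the log2 fold change was -0.26 (SE 0.07; edgeR, adjusted p = 0.00304). GRB7 (chromosome 17) had 1152, 1117 and 1191 CPM with CDK12, against 1097, 1028 and 1111 CPM in controls. Each CDK12 library was above each control by a small margin. The log2 fold change of GRB7 was 0.10 (95% interval 0.012 to 0.18; edgeR, adjusted p = 0.0691), and it passed with upper-quartile factors (0.0148), total counts only (0.00976), limma-voom (0.0459) and the replicate block (0.0483). Without control replicate 2 it was 0.060 (adjusted p = 0.338).

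**Figure D2:**
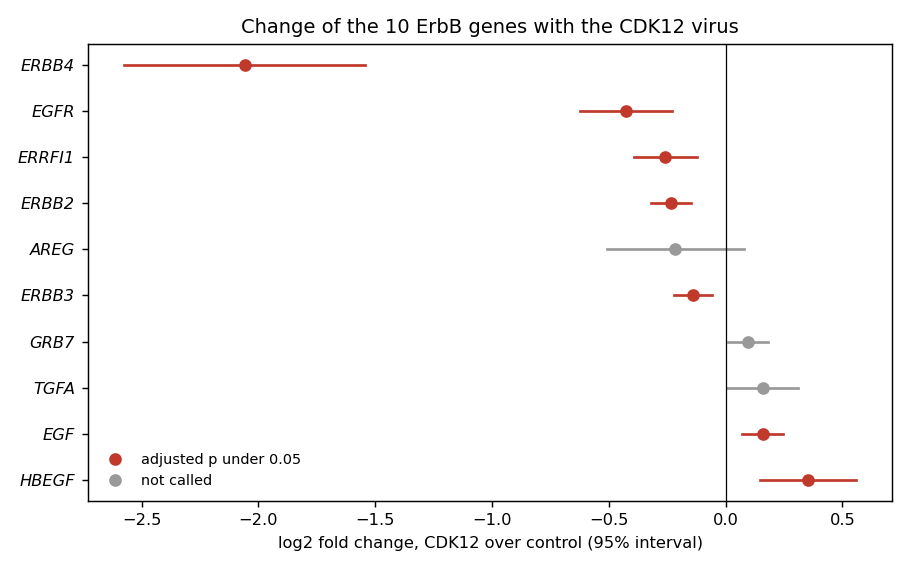
Log2 fold change (CDK12 over control) of the 10 ErbB genes with its 95% interval, from edgeR; red genes passed an adjusted p of 0.05 and grey genes did not. ERBB4 lies at -2.06, apart from the other 9 genes, which lie between -0.43 and 0.35.

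The plot of changes with their intervals shows the receptor genes and ERRFI1 on the lower side and EGF and HBEGF on the higher side. ERBB2 and GRB7 are neighbours on chromosome 17, and counts of genes in the same library can be set against each other without scaling. The ratio of ERBB2 to GRB7 counts was 6.21, 6.51 and 6.42 in CDK12 libraries, against 8.02, 8.11 and 7.95 in controls. The ratio was lower in every CDK12 library, a log2 difference of -0.33 (exact two-sided permutation test, p = 0.1, the smallest that 3 against 3 libraries allow, and 0.125 adjusted by Benjamini-Hochberg over 5 ratios). The ratio of ERBB2 to PGAP3 was 11.6, 11.6 and 11.9 with CDK12, against 11.8, 11.9 and 11.7 in controls, and the groups overlapped (log2 difference -0.014, exact permutation p = 0.3, adjusted p = 0.3). Among the receptors, the ratio of ERBB4 to ERBB2 was lower by a log2 difference of -1.84 with CDK12, and the ratio of ERBB2 to EGFR was higher with CDK12, at 1070 ± 25.3 against 939 ± 67.6 in controls (SD, n = 3 each). ERBB2 to ERBB3 stood at 16.7 ± 0.39 with CDK12 and 17.8 ± 0.61 in controls. Each of these last ratios was separate between the groups (exact permutation p = 0.1, adjusted p = 0.125).

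Of 16 other genes around ERBB2 on chromosome 17, 14 were tested, 4 rose and 5 fell (64.3% called, against 35.1% of all genes tested). Their log2 fold changes ran from -1.79 to 1.29, with a median of 0.049. Both ends had few counts: ZPBP2 (5 to 6 with CDK12, 10 to 23 in controls) and PNMT (17 to 23 with CDK12, 4 to 11 in controls). Each passed the filter only through the group where it is high. The other tested neighbours lay between -0.41 and 0.66. CDK12 itself, at -226 kb from the ERBB2 start, is not in this list. PGAP3, a remodeller of GPI anchors, had 617, 627 and 642 CPM in CDK12 libraries, against 743, 699 and 756 CPM in controls (log2 fold change -0.22, SE 0.04, edgeR adjusted p = 0.000112). IKZF3, a zinc finger factor of lymphocytes, fell with a log2 fold change of -0.41 (edgeR adjusted p = 1.49e-06), and PPP1R1B, a phosphatase inhibitor, rose with 0.66 (edgeR adjusted p = 4.97e-10). STARD3 and MIEN1, named here for their place on either side of ERBB2 after their values were seen, did not pass. STARD3 was at 950 ± 36.0 CPM with CDK12 and 908 ± 30.6 CPM in controls, and MIEN1 at 893 ± 40.9 CPM with CDK12 and 873 ± 43.5 CPM in controls (SD, n = 3 each).

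**Figure D3:**
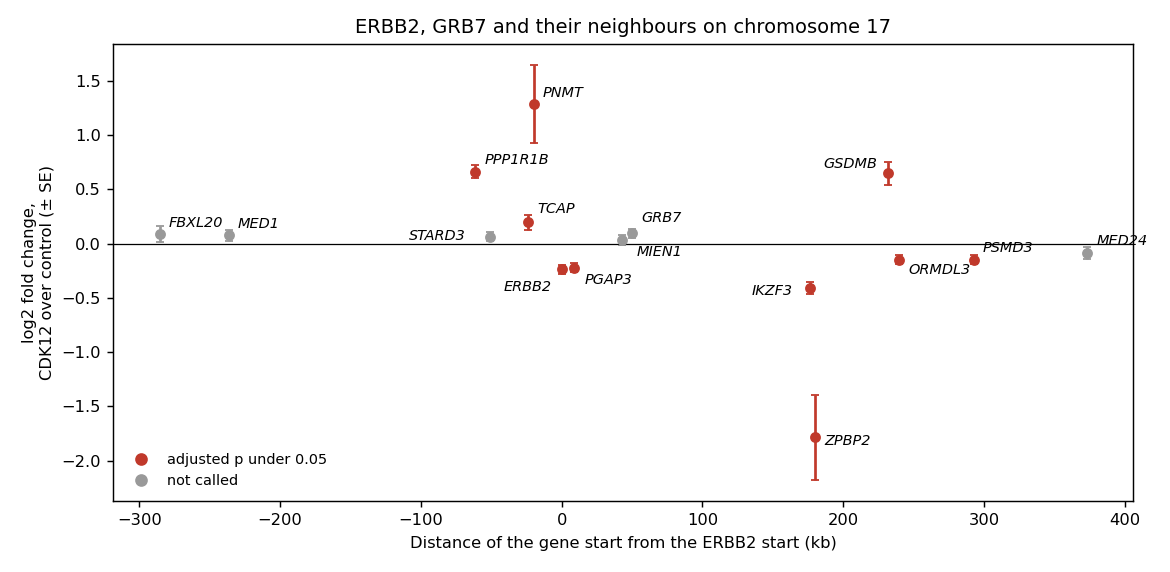
Log2 fold change (CDK12 over control) ± SE of ERBB2, GRB7 and 14 neighbours against the distance of the gene start from the ERBB2 start in kb (GENCODE 29, GRCh38); red genes passed an adjusted p of 0.05 and grey genes did not. ERBB2 and PGAP3 lie together at -0.23 and -0.22, while GRB7, 50 kb away, lies at 0.10. CDK12, at -226 kb, is left out.

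The map of neighbours shows called genes on both sides of 0 within 100 kb of ERBB2. The span of the genes differed widely: ERBB4 covers 1163 kb, EGFR 193 kb, TGFA 107 kb and EGF 99.4 kb, while ERBB2 covers 42.5 kb, ERBB3 26.7 kb and GRB7 9.37 kb. ERBB4 was 1 of 208 tested genes that span over 500 kb, of which 8 were higher and 95 lower in CDK12 libraries (3.85% and 45.7%), with a median log2 fold change of -0.21. Among the 1661 genes of 100 to 200 kb, the class of EGFR and TGFA, 14.1% were higher and 18.2% lower. Among the 6083 genes of 10 to 50 kb, the class of ERBB2, ERBB3, ERRFI1 and HBEGF, 17.4% were higher and 19.3% lower. A call of lower was thus more frequent in the class of ERBB4 than in that of the other receptor genes, and the part of gene span in the ERBB4 result was not tested.

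**Figure D4:**
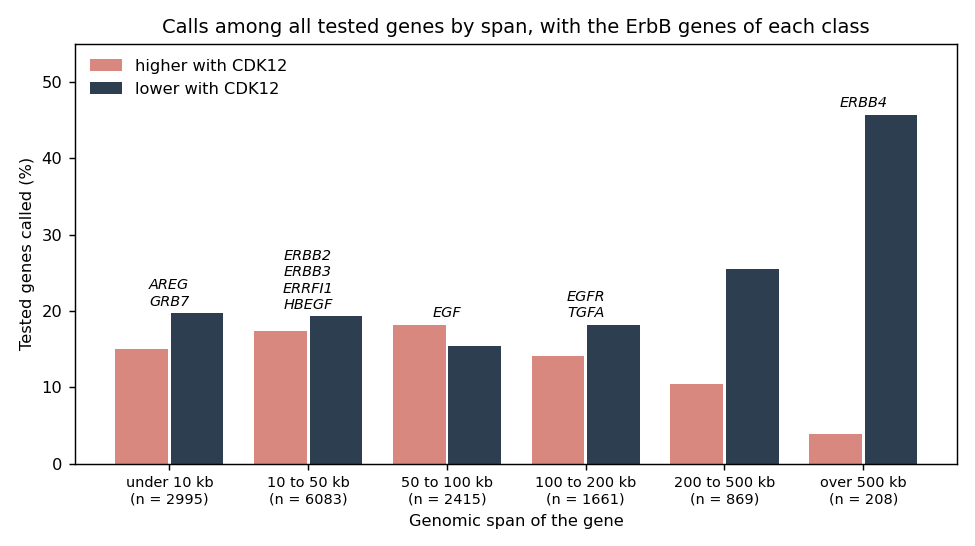
Share of tested genes called higher (light red) or lower (dark blue) in CDK12 libraries, in percent, by genomic span of the gene, with the ErbB genes of each class written above the bars. The share called lower is 45.7% over 500 kb, the class of ERBB4, and 15.4% to 19.7% in the classes that hold the other 9 genes.

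The plot of calls by span sets each ErbB gene beside the genes of like size. Other genes were set in 6 lists, of ErbB signalling and of the chromosome 17 neighbours, which were chosen by position. Of these 73 genes 68 were tested, 9 rose and 16 fell (36.8% called, against 35.1% of all genes tested). The neighbours were called most often (64.3% of 14 tested), with ZPBP2 and PNMT among the calls. Like GRB14 in the adaptor list, they passed the filter on low counts only through the group where they are high. Over all 68 tested genes of the lists the median log2 fold change was -0.021. With upper-quartile factors 15 rose and 10 fell, so the balance of these calls turned with the scaling.

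Of 7 other ligand genes, EREG, BTC, EPGN and NRG4 were tested and 0 passed by edgeR, DESeq2 or limma-voom, with 0 at an unadjusted edgeR p under 0.05. BTC, a ligand of EGFR and ERBB4, was at 3.07 ± 0.18 CPM in CDK12 libraries and 3.54 ± 0.26 CPM in controls, and NRG4, a ligand of ERBB4, at 5.68 ± 0.42 CPM with CDK12 and 6.19 ± 1.00 CPM in controls (SD, n = 3 each). NRG3, another ligand of ERBB4, had 3, 0 and 0 counts in CDK12 libraries and 5, 11 and 11 in controls, and did not pass the filter on low counts. It was called lower with no filter beyond 1 count (edgeR adjusted p = 0.000135). In 4 fits without 1 library NRG3 passed the filter, only through the controls, where it is high. It was called lower there too, but those fits are not separate support for a fall. NRG1, the best known ligand of ERBB3, had 0 counts in each CDK12 library and 1, 0 and 0 in controls, and NRG2 had 5 to 7 counts in every library.

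Of 9 genes of ligand shedding, 2 fell and 7 did not pass (22.2% called, against 35.1% of all genes tested, with a median log2 fold change of -0.088). Under upper-quartile or total-count scaling 1 rose and 1 fell. ADAM9, a membrane metalloproteinase, was at 300 ± 19.0 CPM in CDK12 libraries and 340 ± 19.2 CPM in controls (log2 fold change -0.18, edgeR adjusted p = 0.00391). RHBDF1, an inactive rhomboid that guides ADAM17 to the surface, had a log2 fold change of -0.14 (edgeR adjusted p = 0.0221) and did not pass with upper-quartile factors (0.0925), total counts only (0.11) or without control replicate 1 (0.06), control replicate 3 (0.149), CDK12 replicate 1 (0.0515) or CDK12 replicate 2 (0.108). ADAM17, which sheds AREG, TGFA and HBEGF and is named here after its values were seen, was at 35.0 ± 0.57 CPM with CDK12 and 33.5 ± 1.68 CPM in controls (SD, n = 3 each) and did not pass (edgeR adjusted p = 0.424).

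Of 17 adaptors and effectors, 3 fell and 1 rose (23.5% called, against 35.1% of all genes tested, with a median log2 fold change of -0.020), with 5 falling under the replicate block and 2 rising under upper-quartile or total-count scaling. PTPN11, the phosphatase SHP2 that links receptors to RAS, was at 266 ± 10.9 CPM with CDK12 and 295 ± 12.8 CPM in controls (log2 fold change -0.15, edgeR adjusted p = 0.00636). GRB14, an adaptor of the same family as GRB7, fell with a log2 fold change of -1.10 (SE 0.34, edgeR adjusted p = 0.0129) at 6 to 10 counts in CDK12 libraries and 14 to 21 in controls. It passed the filter on low counts only through the controls, where it is high. It lost its call under DESeq2 (0.0855) and without control replicate 3 (0.0839) and without CDK12 replicate 2 (0.0635). SOS2, an exchange factor of RAS, rose to 96.0 ± 0.53 CPM with CDK12, against 86.1 ± 2.6 CPM in controls (edgeR adjusted p = 0.00682).

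Of 18 genes of receptor turnover and chaperoning, 5 fell and 3 rose (44.4% called, against 35.1% of all genes tested, with a median log2 fold change of 0.021). HSP90AB1, the chaperone on which the ERBB2 protein depends, was at 2226 ± 46.8 CPM in CDK12 libraries and 2542 ± 29.7 CPM in controls (log2 fold change -0.19, edgeR adjusted p = 0.000365). EPN1, an endocytic adaptor, fell with a log2 fold change of -0.23 (edgeR adjusted p = 0.00013). SOCS4, which has been tied to the turnover of EGFR, rose with 0.20 (edgeR adjusted p = 0.00521), but did not pass without CDK12 replicate 2 (adjusted p = 0.0544). The counts of this list moved with the setting: 7 rose and 3 fell under upper-quartile and under total-count scaling, 1 rose and 3 fell without control replicate 3, 5 rose without CDK12 replicate 1 and 1 rose without CDK12 replicate 2.

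Of 6 transcription factors tied to ERBB2, TFAP2A fell, TFAP2B rose and 4 did not pass (33.3% called, against 35.1% of all genes tested). The count that fell was 3 without CDK12 replicate 1, 2 without control replicate 2 and 0 under upper-quartile or total-count scaling. TFAP2A, an AP-2 factor known to act on the ERBB2 promoter, was at 131 ± 3.11 CPM with CDK12 and 144 ± 1.08 CPM in controls (log2 fold change -0.14, edgeR adjusted p = 0.00939), and did not pass with upper-quartile factors (0.0514) or total counts (0.0636). TFAP2B, of the same family, stood at 118 ± 2.59 CPM with CDK12 and 107 ± 1.08 CPM in controls (log2 fold change 0.15, edgeR adjusted p = 0.00745).

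**Figure D5:**
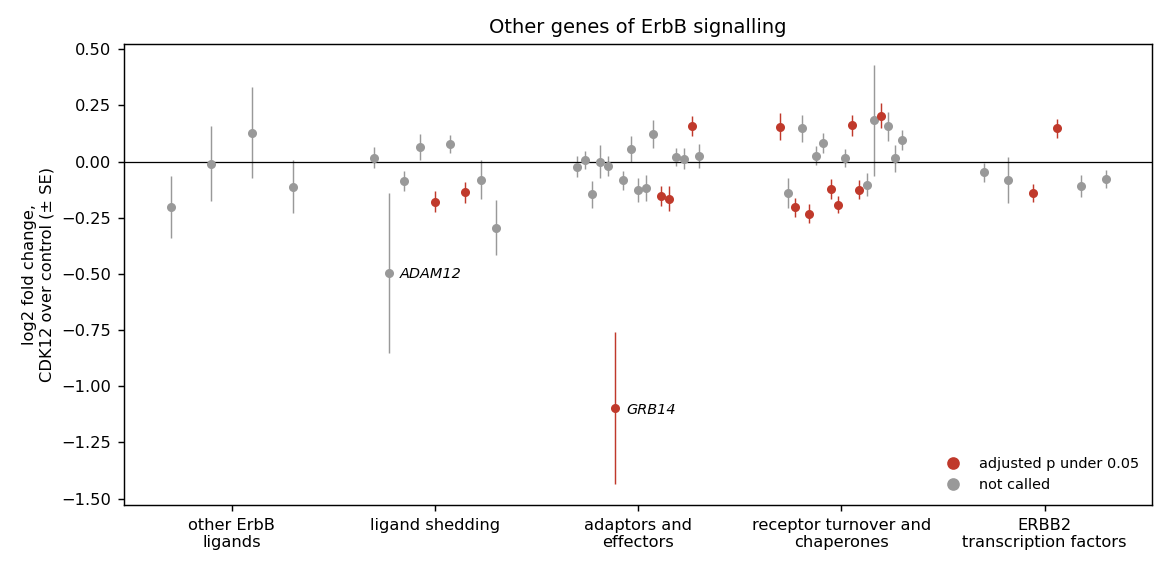
Log2 fold change (CDK12 over control) ± SE of the tested genes in 5 lists of ErbB signalling, with genes spread along each list by name; red genes passed an adjusted p of 0.05 and grey genes did not. Apart from ADAM12 and GRB14, which have few counts, the genes lie between -0.29 and 0.20.

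The plot of the lists shows red points on both sides of 0 in the adaptors, the turnover genes and the transcription factors. Among tested genes with a mean of at least 100 CPM, those closest to ERBB2 in their log2 CPM over the 6 libraries were LRRC41 (Pearson r = 0.9998), CEP170B (0.9979) and CYTH2 (0.9972). The 6 points include the difference between the groups, so the values describe these libraries only.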

How the data were processed

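Polyadenylated RNA from 6 samples was read from both ends on a stranded kit, per the labels' protocols. The values deposited by the authors are raw read counts per gene symbol. The submitters' processing notes name CASAVA 1.8, STAR 2.6.0c, featureCounts of Subread 1.6.2 and the build hg19; the annotation, strand setting and treatment of reads with several matches were not given in the sources used here. Groups and replicate numbers came from the sample titles.

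Genes were filtered with filterByExpr (minimum count 10, minimum total 15), scaled by TMM and compared with edgeR 4.0.16 (quasi-likelihood F test on group). Benjamini-Hochberg adjustment of the two-sided p-values covered every tested gene; the SE is the log2 fold change over the root of F. Replicates of a group differed by more than sampling noise (chi-square per degree of freedom of 2.74 to 4.54). The pairs with CDK12 replicate 1 had 4.54 and 4.43, against 2.74 for CDK12 replicates 2 and 3 and 2.9 to 2.94 for pairs of controls. Without CDK12 replicate 1 all 10 ErbB genes kept their call. Ratios used exact permutation tests. A floor of 3 counts covers counting error only.

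The members and lists were chosen with earlier results of these data known. Always named were the 10 genes and CDK12; from each other list, up to 2 called genes with the smallest p in the main direction and 1 in the other, and the 3 genes most like ERBB2 in pattern. NRDC and ERBIN were matched as NRD1 and ERBB2IP through RefSeq synonyms. Gene spans matched by symbol in GENCODE 29 for 97% of tested genes. Alternatives were other scalings (DESeq2 1.42.0 size factors, upper-quartile factors, total counts), other filters, DESeq2, limma-voom (limma 3.58.1), a replicate block, CDK12 left out and each library left out.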

Additional observations from a re-analysis of the deposited data

How the results depend on the processing

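Over 15 alternative settings all 10 ErbB genes kept the direction of their log2 fold change, and EGFR, ERBB2, ERBB4, EGF, ERRFI1 and AREG kept their side of the threshold in all 15. With upper-quartile factors 4 of the 10 genes were higher, TGFA and GRB7 added, and the 6 lists had 15 higher and 10 lower genes; with total counts 4 were higher and 4 lower, and the lists had 16 and 10. These scalings moved the median of all genes by 0.037 and 0.042 (log2), and higher genes made up 59.6% and 61.7% of all calls, against 46.1% with TMM. Against a fold of 1.2, 459 genes were higher and 479 lower, and of the 10 genes 0 were higher and 1 lower. Leaving out each library in turn gave 1789 to 2310 higher and 2199 to 2735 lower genes, 1 to 2 higher and 5 lower ErbB genes, and 6 to 10 higher and 11 to 18 lower list genes; CDK12 itself stayed between 4.73 and 4.81. The log2 difference of ERBB2 to GRB7 then ran from -0.35 to -0.31. The deviations of same-numbered libraries from their group means had r of -0.0489, 0.0526 and 0.0316, all near 0. Pairs of unlike number ran from -0.0713 to 0.0418, and not every library was closest to its own number. With a replicate block 5106 genes were called, 2330 higher and 2776 lower, and 3 ErbB genes were higher, GRB7 added (adjusted p = 0.0483). The cause of these changes was not tested. Depth limits ERBB4, GRB14, NRG1, NRG2, NRG3, ZPBP2 and PNMT, which had few counts.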
